A study of Mus musculus with 6 samples.

Results

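Described here are 10 genes of the CXC chemokine system, taken from the deposited count table by their gene symbols. They are the ligand genes Cxcl9 and Cxcl10 with their receptor gene Cxcr3, Cxcl16 with Cxcr6, Cxcl1, Cxcl2 and Cxcl3 with Cxcr2, and the receptor gene Cxcr4. The table lists 21780 genes, and all 10 were among the 14430 genes that passed the filter on low counts. The cells were live CD45+CD11b+ cells, that is leukocytes carrying a myeloid integrin, sorted by FACS from the pancreas of wild-type C57BL/6 mice aged 6 to 8 weeks. WGP are hollow particles of yeast β-glucan. The mice had received 1 mg of WGP or PBS by intraperitoneal injection 7 days earlier. There are 3 PBS and 3 WGP libraries, and male and female mice were used in the study. Y-linked genes were expressed in PBS replicates 2 and 3 and had at most 1 count in every other library. Treatment can therefore not be fully told apart from sex. Total counts were 35334645, 38419377 and 40580936 in PBS replicates 1 to 3 and 38240913, 43341834 and 41990018 in WGP replicates 1 to 3. The study describes the samples as separate animals of a single experiment, so p-values measure the spread between these libraries and not between experiments.

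CXC chemokines are small secreted proteins that guide leukocytes along gradients through G protein-coupled receptors. CXCL9 and CXCL10 are made in response to interferon-γ and bind CXCR3, a receptor of activated T cells and NK cells. CXCL16 is made as a membrane-anchored protein that can be shed, and binds CXCR6, found mainly on T cell subsets and innate lymphocytes. CXCL1, CXCL2 and CXCL3 carry an ELR motif before the CXC motif, bind CXCR2 and draw neutrophils. CXCR4 binds CXCL12 and holds leukocytes in bone marrow and tissue.

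The sorted libraries held the RNA of myeloid cells. Lyz2, the lysozyme gene of myeloid cells and the most abundant of 7 myeloid marker genes by CPM over all libraries, which is how lists are led below, stood at 7069 ± 1852 CPM in PBS and at 16342 ± 627 CPM in WGP (SD, n = 3), where CPM are read counts scaled to library size by TMM. The 7 myeloid genes summed to 9434, 15079 and 15498 CPM in PBS replicates 1 to 3 and to 22965, 21990 and 23222 CPM in WGP replicates 1 to 3. Lyz2 carried the higher sum, since the other 6 genes, summed after seeing the data, had 4502, 7036 and 7267 CPM in PBS and 6485, 6333 and 6334 CPM in WGP, and overlapped. Of the 7 genes, 2 were called higher, Lyz2 and the Fc receptor gene Fcgr1, 3 had a log2 fold change below 0, and none was at 0 in all libraries. Marker levels of several cell types differed between the groups. All 7 resident macrophage markers, led by Mrc1, were called lower in the WGP libraries, and their sum was 3992, 8115 and 10260 CPM against 734, 1022 and 784 CPM. Of 7 Ly6C-high monocyte markers, led by Ccr2, 5 were called higher, and their sum was 1171, 871 and 707 CPM against 3787, 3483 and 3741 CPM. In bulk samples fewer cells of a type and less RNA per cell cannot be told apart.

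Separate libraries also stood apart within their groups. PBS replicate 1 had the highest sum of 5 B cell markers, led by Cd79a, with 2414 CPM against 621 and 361 CPM in PBS replicates 2 and 3. In the WGP libraries the same sum was 151, 169 and 86.8 CPM, and all 5 genes were called lower. WGP replicate 2 had the highest sum of 4 fibroblast markers, led by Col1a2, with 1016 CPM against 27.3 and 21.9 CPM in WGP replicates 1 and 3 and 96.2, 51.8 and 83.0 CPM in the PBS libraries. It also had the highest sum of 4 mesothelial markers, led by Upk3b, with 54.7 CPM against 1.28 and 3.18 CPM in the other WGP libraries and 9.26, 0.95 and 2.91 CPM in the PBS libraries. The fit was therefore also run without these libraries.

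Of the 10 genes, 3 were called higher in the WGP libraries and 0 were called lower. A call required an adjusted p of at most 0.05 in edgeR's quasi-likelihood test over all genes together with a log2 fold change of 1 or more in either direction. By this rule 9.49% of all genes tested were called, 4.53% higher and 4.96% lower. The called genes were Cxcl9, Cxcl10 and Cxcr2. At the adjusted p alone 4 of the 10 passed, with Cxcl16 added, against 14.4% of all genes tested. In 5 of the 10 genes every WGP library lay above every PBS library, where 32.0% of all genes tested had groups that did not overlap. The median log2 fold change of the 10 genes was 0.87, with Cxcr6 at its fitted value or at its lower bound alike, and that of all genes tested was -0.05. Without PBS replicate 1 and WGP replicate 2 together, a setting chosen after seeing the data that leaves 2 libraries a group, 6 of the 10 genes were called, 4 higher and 2 lower, where 11.5% of all genes tested in that setting were called.

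**Figure D1:**
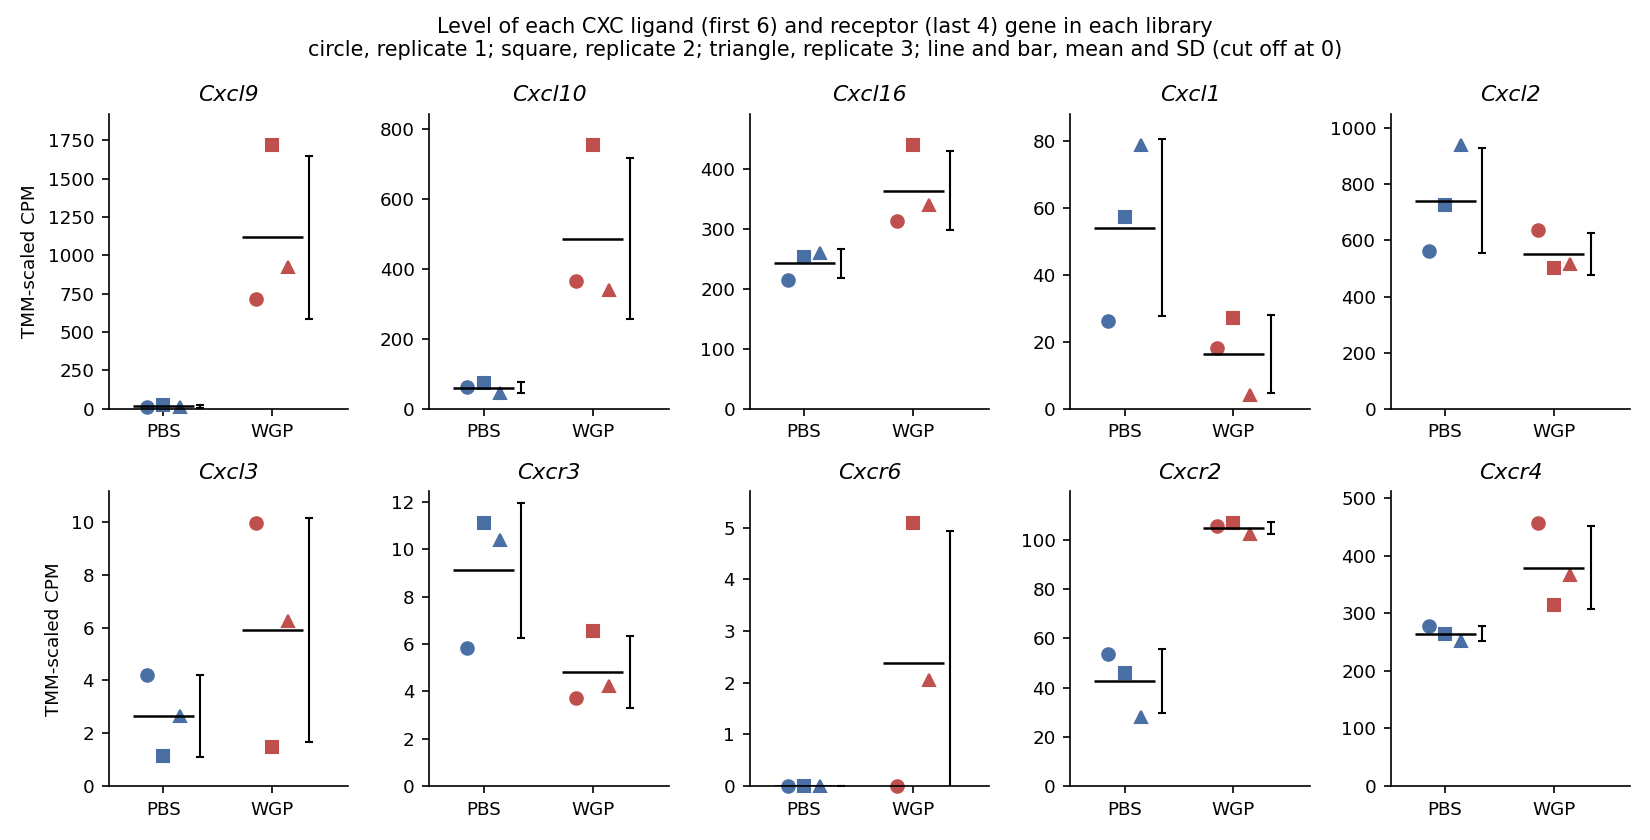
Level of each of the 10 genes in each library, in TMM-scaled CPM on linear axes from 0, with the mean as a line and the SD as a bar beside the points of each group (n = 3). In Cxcl9, Cxcl10, Cxcl16, Cxcr2 and Cxcr4 the 3 WGP libraries lie above the 3 PBS libraries, and Cxcr6 has counts in WGP replicates 2 and 3 alone.

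Of all 10 genes, the 2 ligand genes of CXCR3 had the largest called changes. Cxcl9 (ENSMUSG00000029417) was at 12.7, 22.1 and 7.48 CPM in PBS replicates 1 to 3 and at 712, 1717 and 922 CPM in WGP replicates 1 to 3. Every WGP library lay far above every PBS library, and WGP replicate 2 was the highest. The ratio of the group means was 79.3, and the fitted log2 fold change was 6.31 (SE 0.49, where SE is the standard error, adjusted p = 2.66e-05 in edgeR's quasi-likelihood test). The spread within each group was much smaller than this, with the highest library 2.96 times the lowest in PBS and 2.41 times the lowest in WGP. Without WGP replicate 2 the log2 fold change was 5.86, and over 17 other fits it lay between 5.79 and 6.79. Cxcl9 was called in all of them.

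Cxcl10 (ENSMUSG00000034855), the other interferon-inducible ligand of the same receptor, was present in the PBS libraries at a higher level than Cxcl9. It had 61.2, 74.3 and 44.4 CPM in PBS replicates 1 to 3 and 365, 752 and 340 CPM in WGP replicates 1 to 3. Again the groups did not overlap and WGP replicate 2 was the highest. The ratio of the means was 8.10, and the log2 fold change was 3.02 (SE 0.32, adjusted p = 0.000185 in edgeR's test). Without WGP replicate 2 it was 2.56, the lowest of the 17 other fits, of which the highest was 3.22. Cxcl10 overlaps the gene Art3 on the opposite strand over its 2252 bases, and Art3 had between 13 and 63 counts in a library. A further ligand of CXCR3, Cxcl11, was not analysed here.

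The balance of both CXCR3 ligands within a library lay apart in the groups, though its test did not pass. Cxcl9 stood at 0.207, 0.298 and 0.168 of the CPM of Cxcl10 in PBS replicates 1 to 3, and at 1.95, 2.28 and 2.72 times it in WGP replicates 1 to 3. In every PBS library Cxcl10 had more counts than Cxcl9, and in every WGP library Cxcl9 had more. The difference in the mean log2 ratio, WGP minus PBS, was 3.35. A two-sided exact permutation test gave p = 0.1, the smallest that 3 libraries against 3 allow, and 0.2 after adjustment over the 3 ratios tested.

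Cxcr3 (ENSMUSG00000050232), the receptor of these ligands, was low in both groups and was not called. It had 225, 433 and 425 counts in PBS replicates 1 to 3 and 137, 272 and 173 counts in WGP replicates 1 to 3, or 5.85, 11.1 and 10.4 CPM against 3.72, 6.56 and 4.23 CPM. WGP replicate 2 lay above PBS replicate 1, so the groups overlapped. The log2 fold change was -0.91 (SE 0.48, adjusted p = 0.271 in edgeR's test). Without PBS replicate 1 and WGP replicate 2, a setting chosen after seeing the data, it was -1.44 (adjusted p = 0.0482 in edgeR's test), in a range over 17 other fits from 0.0482 to 0.851. Markers of T cells, which can carry this receptor, were low throughout, while those of NK cells were highest in PBS replicate 1. Of 8 T cell markers, led by Cd4, 1 was called higher and 0 lower, and their sum was 47.3, 46.4 and 39.7 CPM against 20.9, 54.4 and 21.2 CPM. The called gene was Cd8a, a coreceptor of cytotoxic T cells also carried by some dendritic cells, with 61, 122 and 61 counts in WGP replicates 1 to 3 and none in PBS. Against a floor of 3 counts it was at least 75.3-fold higher, and against the higher floor described with Cxcr6 below at least 1.84-fold. Its call held in 9 of 17 other fits, with adjusted p values from 3.51e-05 to 0.209. Of 7 NK cell markers, 1 was called lower, the granzyme gene Gzma, which led the list, and the sum was 207, 100.3 and 48.9 CPM against 41.2, 56.0 and 42.8 CPM. Gzma was called in 13 of 17 other fits, with adjusted p values from 0.00082 to 0.0954. The sort took CD11b+ cells, which the study counted apart from T cells and NK cells. Its mass cytometry of CD11b+ cells, though, also showed NK cells, with an increase after WGP. The part of T cells and NK cells in the values of Cxcr3 was not tested.

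Promoters of 9 of the 10 genes are in the RefSeq table of GRCm38.p6, and the 250 bases before each start were searched on both strands for 3 motifs. GAS, an element of interferon-γ response, was found in 7.02% of the 32851 promoters of the table. The core of the ISRE, an element of interferon response, was found in 2.98%, and the κB consensus of NF-κB in 7.25%. The promoters of Cxcl9 and Cxcl10 are shown because these genes had the largest called changes among the ligands. They lie on the minus strand at chr5:92328080-92328329 and chr5:92348890-92349139, just upstream of each gene. Capitals mark matches to the ISRE core and to the κB consensus.
Cxcl9: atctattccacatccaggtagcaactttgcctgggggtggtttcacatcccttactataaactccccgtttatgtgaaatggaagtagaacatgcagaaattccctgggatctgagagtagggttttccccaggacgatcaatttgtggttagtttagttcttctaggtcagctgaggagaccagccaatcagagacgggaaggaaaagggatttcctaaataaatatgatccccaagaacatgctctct
Cxcl10: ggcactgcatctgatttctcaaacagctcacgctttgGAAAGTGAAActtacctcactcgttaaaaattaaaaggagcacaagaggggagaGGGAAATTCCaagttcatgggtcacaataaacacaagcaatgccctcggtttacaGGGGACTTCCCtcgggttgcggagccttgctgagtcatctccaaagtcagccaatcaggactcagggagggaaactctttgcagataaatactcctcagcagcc
The Cxcl10 promoter held 1 match to the ISRE core, on the opposite strand 213 bases before the start (chr5:92349093-92349102), and 4 matches to the κB consensus. The κB match farthest from the start lay at 159 bases before it, and the others overlapped each other at 104 and 103 bases. No match to these 3 motifs was found in the window of Cxcl9 or in those of the receptor genes Cxcr2, Cxcr3, Cxcr4 and Cxcr6, which says only that these letters are not there.

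Genes listed for interferon-γ signalling, a pathway known to induce both ligands, were higher in the WGP libraries in many cases. The list also holds genes that interferon induces. The part of this pathway in the values of Cxcl9 and Cxcl10 was not tested. Of 13 genes listed, 7 were called higher and 0 lower, where 4.53% and 4.96% of all genes tested were, with a median log2 fold change of 1.29 against -0.05 for all genes tested. Socs1, a feedback inhibitor of JAK kinases, had a log2 fold change of 3.69 (adjusted p = 0.00355 in edgeR's test). The call was lost when Y-linked counts, present or absent, entered the fit as a term (log2 fold change 3.47, adjusted p = 0.0638), in a range from 1.84e-08. Batf2 and Irf1, transcription factors induced by interferon, had log2 fold changes of 3.58 and 2.30, and Ifngr2, a chain of the receptor, one of 1.51. The gene of the cytokine itself, Ifng, which was named after its values were seen, was not called. It had 474, 217 and 0 counts in PBS replicates 1 to 3 and 37, 136 and 222 in WGP replicates 1 to 3, so that the groups overlapped (adjusted p = 0.753 in edgeR's test).

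Cxcl16 (ENSMUSG00000018920), the membrane-anchored ligand of CXCR6, was well expressed in both groups. It had 215, 252 and 259 CPM in PBS replicates 1 to 3 and 312, 439 and 340 CPM in WGP replicates 1 to 3. Every WGP library lay above every PBS library, with WGP replicate 2 the highest. The log2 fold change was 0.59 (SE 0.17, adjusted p = 0.0417 in edgeR's test), short of the fold threshold. Its adjusted p lay between 0.00898 and 0.128 over 17 other fits, and was 0.128 without WGP replicate 2, where the log2 fold change was 0.43. Zmynd15 overlaps Cxcl16 by 552 bases on the opposite strand and shares 15.4% of the 75-base windows of its transcripts. The strand setting of the counting is not given in the sources used here, so reads of these genes cannot be fully told apart. Zmynd15 was at 26.4, 30.4 and 25.3 CPM in PBS replicates 1 to 3 and 47.3, 41.7 and 67.0 CPM in WGP replicates 1 to 3, well below Cxcl16.

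Of 5 genes for the shedding and anchoring of CXCL16, 1 was called higher and 0 lower, where 4.53% and 4.96% of all genes tested were. Their median log2 fold change was 0.71 against -0.05 for all genes tested, and 0.17 without WGP replicate 2, taken after seeing the data. The called gene was Adam17, which encodes a sheddase of many membrane proteins. It was at 157 ± 13.9 CPM in PBS and 353 ± 23.1 CPM in WGP (SD, n = 3), a log2 fold change of 1.17 (SE 0.14, adjusted p = 0.000382 in edgeR's test). It was called in all 17 other fits.

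Cxcr6 (ENSMUSG00000048521), the receptor of CXCL16, had 0 counts in each PBS library. In WGP replicates 1 to 3 it had 0, 211 and 84 counts, so that WGP replicate 1 did not differ from the PBS libraries. Against a floor of 3 counts over the PBS group, the WGP libraries together were at least 91.0-fold higher, and without WGP replicate 2 at least 39.9-fold. Floors cover counting error only, and low counts in these libraries came in lumps. The most frequent low count was 41, 28 and 28 in PBS replicates 1 to 3 and 19, 32 and 28 in WGP replicates 1 to 3, so the counts of Cxcr6 were 6.6 and 3.0 times that of their library. With a floor of 3 times 41 counts, chosen after seeing the data, the bound was 2.22-fold, and without WGP replicate 2 it was 0.973-fold, which leaves no rise. Cxcr6 was not called (adjusted p = 0.0797 in edgeR's test). Over 16 other fits the adjusted p lay between 0.00230, in DESeq2, and 0.312, and without WGP replicate 1 it was 0.0387. Of the 8 T cell markers, 5 were highest in WGP replicate 2, the library with most counts of Cxcr6, and the others in PBS libraries. All 4 fibroblast and all 4 mesothelial markers were highest in WGP replicate 2 as well. Cd4 had 1176 counts in PBS replicate 3 against 639 in WGP replicate 2. Cd3e, a chain of the T cell receptor complex named after its values were seen, had 49, 343 and 73 counts in WGP replicates 1 to 3. In PBS it had 0, 3 and 28, so its groups did not overlap, and it was not called (adjusted p = 0.179 in edgeR's test). It was called in 1 of 17 other fits. The sort took CD11b+ cells, which the study counted apart from T cells. The part of T cells in the values of Cxcr6 was not tested. Cxcr6 lies entirely within Fyco1 on the opposite strand, a gene with 1645 to 2699 counts in a library and an adjusted p of 0.717 in edgeR's test.

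Of the 3 ligand genes of CXCR2 none was called. Cxcl2 (ENSMUSG00000058427), an early neutrophil attractant of activated macrophages, was the most abundant of them in every library. It had 563, 725 and 939 CPM in PBS replicates 1 to 3 and 639, 503 and 517 CPM in WGP replicates 1 to 3. PBS replicate 1 lay below WGP replicate 1, so the groups overlapped, and the log2 fold change was -0.42 (SE 0.20, adjusted p = 0.212 in edgeR's test). Cxcl1 (ENSMUSG00000029380), a close paralogue, was at 26.1, 57.3 and 78.7 CPM in PBS replicates 1 to 3 and 18.1, 27.2 and 3.91 CPM in WGP replicates 1 to 3. PBS replicate 1 was slightly below WGP replicate 2, and this pair alone made the groups overlap. The log2 fold change was -1.72 (SE 0.59, adjusted p = 0.0867 in edgeR's test). It was called without PBS replicate 1 (log2 fold change -2.05, adjusted p = 0.0391), without WGP replicate 2 (-2.30, 0.0421) and without both (-2.64, 0.00416). DESeq2 called it as well (adjusted p = 0.0208), and over the 17 other fits the adjusted p ranged up to 0.644. The Y-linked term, described with Cxcr2 below, gave this value, with a log2 fold change of -0.67.

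Cxcl3 (ENSMUSG00000029379) had few counts. These were 162, 44 and 108 in PBS replicates 1 to 3 and 367, 62 and 256 in WGP replicates 1 to 3, or between 1.6 and 19.3 times the most frequent low count of their library. Replicate 2 was the lowest in each group, and the groups overlapped. The log2 fold change was 1.15 (SE 0.82, adjusted p = 0.409 in edgeR's test). It was called without PBS replicate 1 and WGP replicate 2, chosen after seeing the data (2.10, adjusted p = 0.0485), in a range up to 0.860. Cxcl3 shares 101 of the 75-base windows of its transcripts with Cxcl2, which are 2.78% of its own and 4.57% of those of Cxcl2, and reads from these could not be placed in either gene alone. Cxcl1 shared none.

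Within a library the ratios of these ligands overlapped between the groups. Cxcl1 stood at 0.0464, 0.0791 and 0.0838 of Cxcl2 in PBS replicates 1 to 3 and at 0.0283, 0.0541 and 0.00756 in WGP replicates 1 to 3. The mean log2 ratio differed by -1.51, WGP minus PBS (exact permutation p = 0.2, adjusted p = 0.2 over 3 ratios). For Cxcl3 to Cxcl2 the difference was 1.25 (exact permutation p = 0.2, adjusted p = 0.2). WGP replicate 2 overlapped the PBS libraries in both ratios.

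The promoters of Cxcl1, Cxcl2 and Cxcl3 each held the same κB letters on both strands, between 70 and 97 bases before the start. They are shown in windows of 30 bases, chosen after the matches were seen, because these paralogues share the letters while their levels differed. Capitals mark the match on the plus strand, and the match on the opposite strand lies 1 base closer to the start.
Cxcl1, chr5:90891164-90891193: cctgtactccGGGAATTTCCctggcccgga
Cxcl2, chr5:90903792-90903821: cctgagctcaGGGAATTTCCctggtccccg
Cxcl3, chr5:90786018-90786047: gagctgcgggGGGAATTTCCccagcccggg
None of the windows of 250 bases before the RefSeq starts of these genes held the GAS or the ISRE letters.

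Genes that feed NF-κB, the main inducer of CXCR2 ligands, or that regulate it or respond to it, had calls in both directions. The list mixes inputs with inhibitors and targets, so its median gives no direction of the pathway. Of 17 genes listed, 2 were called higher and 1 lower, where 4.53% and 4.96% of all genes tested were. Their median log2 fold change was 0.31, and it was 0.11 without WGP replicate 2 and 0.55 without PBS replicate 1. At the adjusted p alone 5 were higher and 4 lower, where 14.4% of all genes tested passed. The groups did not overlap in 10 of the 17, against 32.0% of all genes tested. Il1b, the cytokine interleukin-1β, was at 342 ± 17.0 CPM in PBS and 2723 ± 801 CPM in WGP (SD, n = 3), a log2 fold change of 2.99 (SE 0.22, adjusted p = 2.21e-05 in edgeR's test). Myd88, an adaptor of Toll-like and interleukin-1 receptors, had a log2 fold change of 1.16. Nfkbiz, a nuclear regulator of NF-κB target genes, was called lower, from 1150 ± 168 to 396 ± 103 CPM, with a log2 fold change of -1.54 (SE 0.21, adjusted p = 0.000758 in edgeR's test). The most abundant gene of the list, Zfp36, whose protein destabilises chemokine and cytokine mRNAs, was at 4645 ± 611 and 3677 ± 473 CPM and was not called. Genes known to respond to tissue dissociation, and to other stimuli as well, also differed between the groups. Of 7 such genes, 6 were called lower in the WGP libraries, and their sum was 21333, 25343 and 18999 CPM in PBS replicates 1 to 3 against 7365, 5461 and 7195 CPM in WGP replicates 1 to 3. The most abundant over all libraries, Fos, was the gene not called. The part of such a response in the values of Cxcl1 and Cxcl2 was not tested.

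Cxcr2 (ENSMUSG00000026180), the receptor of these ligands and a marker of neutrophils, was called higher. It had 53.8, 46.0 and 28.2 CPM in PBS replicates 1 to 3 and 105.8, 106.9 and 102.3 CPM in WGP replicates 1 to 3. The WGP libraries lay close together and all above the PBS libraries, among which PBS replicate 3 was the lowest. The ratio of the means was 2.46, and the log2 fold change was 1.30 (SE 0.22, adjusted p = 0.00320 in edgeR's test). Without PBS replicate 3 it was 1.08, still called. When Y-linked counts, present or absent, entered the fit as a term it was 0.97 (adjusted p = 0.0530), the highest of 17 other fits, which start at 1.20e-05. Y-linked genes summed to 8972 and 10063 counts in PBS replicates 2 and 3 and to 0 or 1 count in all other libraries, so this fit sets the WGP libraries against PBS replicate 1.

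Other genes of neutrophils mostly did not move with Cxcr2. Of 10 neutrophil markers, led by S100a9, 0 were called higher and 1 lower, the gelatinase gene Mmp9, and 9 of the 10 had a log2 fold change below 0. Their sum was 6529, 3722 and 2415 CPM in PBS replicates 1 to 3 and 2599, 2767 and 2741 CPM in WGP replicates 1 to 3, with PBS replicate 1 the highest. None of the 10 was at 0 in all libraries. The gene above 0 was Csf3r, the receptor of the growth factor G-CSF, named after its values were seen. It had 466, 459 and 429 CPM in PBS replicates 1 to 3 and 875, 616 and 881 CPM in WGP replicates 1 to 3, and the groups did not overlap. Its log2 fold change was 0.81 (adjusted p = 0.00925 in edgeR's test, 1.87e-05 to 0.0616 over 17 other fits), short of the fold threshold. Cxcr1, the neighbour receptor of the same ligand family, had 31, 0 and 0 counts in PBS replicates 1 to 3 and 128, 83 and 121 in WGP replicates 1 to 3. Its groups did not overlap, and it was not called (log2 fold change 3.37, SE 1.99, adjusted p = 0.333 in edgeR's test). It was called in 3 of 17 other fits, with adjusted p values from 0.0148 to 0.664.

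Cxcr4 (ENSMUSG00000045382), the receptor of CXCL12, was the most abundant receptor gene of the 10 in both groups. It had 278, 264 and 252 CPM in PBS replicates 1 to 3 and 456, 314 and 366 CPM in WGP replicates 1 to 3. All WGP libraries lay above all PBS libraries, with WGP replicate 1 the highest. The log2 fold change was 0.52 (SE 0.16, adjusted p = 0.0638 in edgeR's test), and it lay between 0.36 and 0.67 over 17 other fits, below the fold threshold in each. Among genes that carry the signal of chemokine receptors the share of calls was close to that of all genes. Of 20 listed, 1 was called higher and 1 lower, where 9.49% of all genes tested were called, with a median log2 fold change of -0.01. Pik3r5, a regulatory subunit of PI3K-γ, had a log2 fold change of 1.33 (adjusted p = 0.00111 in edgeR's test), and Rgs18, a regulator of G protein signalling, one of -1.32 (adjusted p = 0.0168). Rgs18 was not called without PBS replicate 3 (adjusted p = 0.0699), without WGP replicate 3 (0.0635) or with the Y-linked term (0.125), in a range from 0.00275, while its log2 fold change stayed between -1.61 and -1.07. The most abundant of the list, Gnai2, a G protein α subunit, was at 1219 ± 35.8 and 1303 ± 47.7 CPM and was not called.

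**Figure D2:**
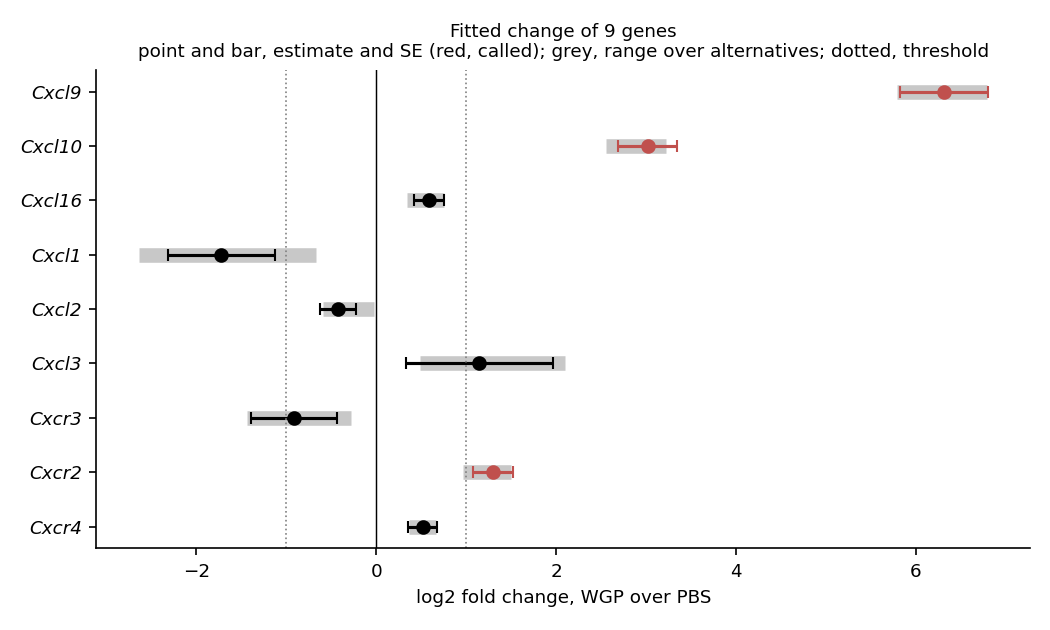
Fitted log2 fold change (WGP over PBS) of the 10 genes but Cxcr6, whose PBS libraries were all at 0, with its standard error, and in grey the range over the other fits, with dotted lines at the fold threshold of 1 in each direction. Cxcl9, Cxcl10 and Cxcr2 are called, and the range of Cxcr2 reaches down to 0.97.

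Levels of different genes are compared per kilobase of exon. In the PBS libraries the order by mean was Cxcl2, at 359 ± 91.2 CPM per kb, Cxcr4 at 146 ± 7.31, Cxcl16 at 80.2 ± 7.84, Cxcl1 at 28.8 ± 14.1 and Cxcl10 at 26.6 ± 6.65 (SD, n = 3). Cxcr2, Cxcr3, Cxcl9, Cxcl3 and Cxcr6 followed, at 14.0 ± 4.29, 5.27 ± 1.65, 4.67 ± 2.46, 0.761 ± 0.441 and 0 CPM per kb. Of the 9 pairs of neighbours in this order, Cxcl1 with Cxcl10 and Cxcr3 with Cxcl9 had overlapping libraries. In the WGP libraries Cxcl9 was highest by mean, at 370 ± 176 CPM per kb, before Cxcl2 at 267 ± 36.3, Cxcl10 at 216 ± 103, Cxcr4 at 209 ± 39.9 and Cxcl16 at 120 ± 22.0. Among the first 4 each overlapped the next, so their order is not resolved, while Cxcr4 lay apart from Cxcl16. Cxcr2, Cxcl1, Cxcr3, Cxcl3 and Cxcr6 followed, at 34.5 ± 0.795, 8.74 ± 6.26, 2.79 ± 0.875, 1.69 ± 1.21 and 1.23 ± 1.33 CPM per kb, and the last 4 overlapped each other in turn.

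Taken per kilobase, the make-up of the 6 ligand transcripts differed between the groups. Cxcl2 made up 69.8%, 69.4% and 75.1% of their sum in PBS replicates 1 to 3 and 37.5%, 18.6% and 30.4% in WGP replicates 1 to 3. Cxcl9 made up 1.08%, 1.45% and 0.41% in PBS replicates 1 to 3 and 28.7%, 43.6% and 37.2% in WGP replicates 1 to 3. The groups did not overlap in either share. The sum itself was 390, 505 and 605 CPM per kb in PBS replicates 1 to 3 and 823, 1306 and 823 CPM per kb in WGP replicates 1 to 3. Shares within a sum depend on each other, so the lower share of Cxcl2 is no call of a lower level.

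**Figure D3:**
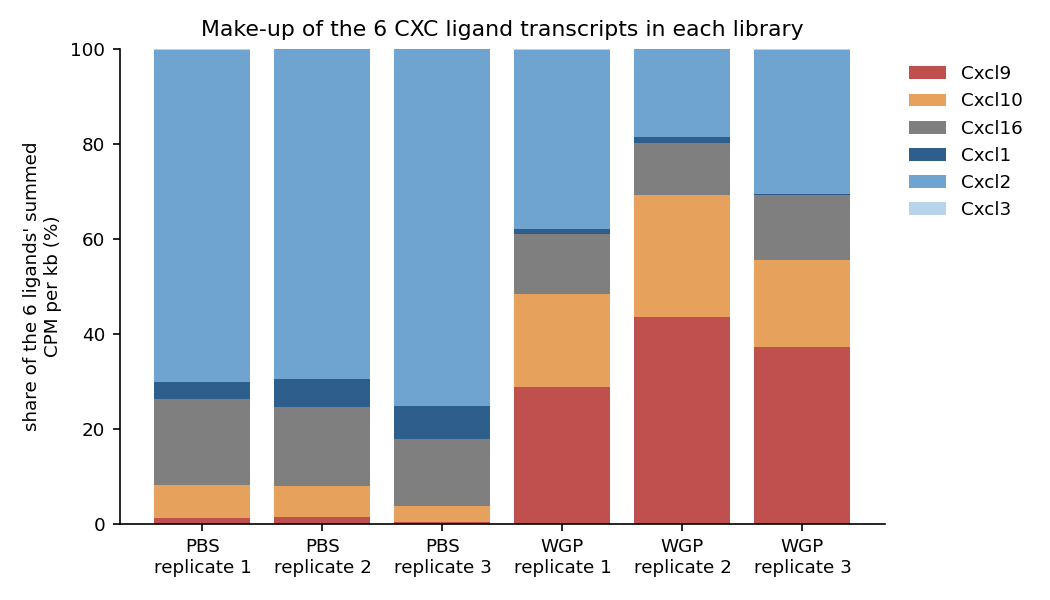
Share of each of the 6 ligand genes in their summed level per library, in percent of TMM-scaled CPM per kb of exon. Cxcl2 takes between 69.4% and 75.1% of each PBS bar and between 18.6% and 37.5% of each WGP bar, where Cxcl9 and Cxcl10 take most of the rest.

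Of 9 other CXC ligand genes, which count Cxcl11, not analysed here, 6 were tested. Of these, 0 were called higher and 1 lower, where 4.53% and 4.96% of all genes tested were. The called gene was Pf4, platelet factor 4, which in tissue is also made by resident macrophages. It had 10025, 14809 and 18434 counts in PBS replicates 1 to 3 and 519, 403 and 639 in WGP replicates 1 to 3 (adjusted p = 5.61e-06 in edgeR's test). Ppbp, its neighbour in the genome and a ligand of CXCR2 once processed, had 43, 98 and 83 counts in PBS and 10, 0 and 0 in WGP (adjusted p = 0.278 in edgeR's test). It was called in 1 of 17 other fits, limma-voom (adjusted p = 0.0426), in a range up to 0.488. Platelet markers were near 0, with sums between 1.08 and 9.41 CPM in a library over 5 genes led by Gp6, and Gp9 and Gp1bb were at 0 in all libraries. Cxcl5, a further ligand of CXCR2, had 44 counts in WGP replicate 2 and 0 elsewhere, and Cxcl15 and Cxcl17 had 0 counts in every library.

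In edgeR's test the calls of 2 further ligand genes depended on a single library. Cxcl12, the ligand of CXCR4, had 733, 1067 and 1248 counts in PBS replicates 1 to 3 and 131, 964 and 67 in WGP replicates 1 to 3. Cxcl13, the ligand of CXCR5 that draws B cells, had 927, 1090 and 1899 counts in PBS and 85, 1127 and 55 in WGP. In both genes WGP replicate 2, the library with the highest fibroblast and mesothelial sums, lay among the PBS libraries while the other WGP libraries lay far below. Neither was called in the main fit (adjusted p = 0.280 for each in edgeR's test). Without WGP replicate 2 the log2 fold changes were -3.30 for Cxcl12 (adjusted p = 0.00108) and -4.17 for Cxcl13 (adjusted p = 0.000265). With all libraries limma-voom called Cxcl13 (adjusted p = 0.0450). Over the 17 other fits the adjusted p ran from 9.06e-05 to 0.630 for Cxcl12 and from 1.41e-05 to 0.609 for Cxcl13. Cxcl14, a ligand of epithelium and fibroblasts, had 295, 489 and 437 counts in PBS and 159, 348 and 61 in WGP and was not called (log2 fold change -1.12, adjusted p = 0.280 in edgeR's test). It was called without PBS replicate 1 and WGP replicate 2 alone (-2.00, adjusted p = 0.0301), in a range up to 0.673. The part of fibroblasts and mesothelial cells in these values was not tested.

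Of 7 other receptors and scavengers, all tested, 1 was called higher and 1 lower, where 4.53% and 4.96% of all genes tested were. Ccrl2, an atypical receptor that presents the attractant chemerin, was at 175 ± 25.0 CPM in PBS and 669 ± 105 CPM in WGP (SD, n = 3), a log2 fold change of 1.94 (SE 0.17, adjusted p = 6.26e-05 in edgeR's test). Cxcr5, the receptor of CXCL13 on B cells, had 4317, 1734 and 1138 counts in PBS replicates 1 to 3 and 372, 586 and 346 in WGP replicates 1 to 3, a log2 fold change of -2.50 (SE 0.46, adjusted p = 0.00477). PBS replicate 1 was highest in Cxcr5 as in the B cell markers. Without it Cxcr5 was still called, with a log2 fold change of -1.73. Ackr2, a scavenger of inflammatory chemokines, had 596, 64 and 112 counts in PBS and 18, 0 and 16 in WGP and was not called (adjusted p = 0.0659). It was called in 3 of 17 other fits, with adjusted p values from 0.00285 to 0.455. Ackr3, a scavenger of CXCL12, had between 26 and 118 counts in every library but WGP replicate 2, which had 393 (adjusted p = 0.666). Ackr1 and Ackr4 had 39 and 40 counts in WGP replicate 2 and 0 elsewhere.

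On chromosome 5 of GRCm38 lie 10 of the CXC ligand genes analysed here. Cxcl5, Ppbp, Pf4, Cxcl3, Cxcl15, Cxcl1 and Cxcl2 lie on the plus strand in a cluster from 90759360 to 90905938. Cxcl9 (chr5:92321347-92328079) and Cxcl10 (chr5:92346638-92348889) lie 1415408 bases farther along, on the minus strand and 18558 bases apart. Both genes of this pair were called higher. In the other cluster Cxcl3 (chr5:90786103-90789600), Cxcl1 (chr5:90891241-90893115) and Cxcl2 (chr5:90903871-90905938) were not called, while Pf4 (chr5:90772435-90773383) was called lower. Cxcl13 (chr5:95956951-95961068), on the plus strand, lies 3608061 bases beyond Cxcl10 and was not called. The remaining genes lie elsewhere, with Cxcl16 at chr11:70453983-70459984, Cxcr6 at chr9:123806475-123811760, Cxcr2 at chr1:74153989-74161246, Cxcr4 at chr1:128588199-128592293 and Cxcr3 at chrX:101731535-101734269.

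**Figure D4:**
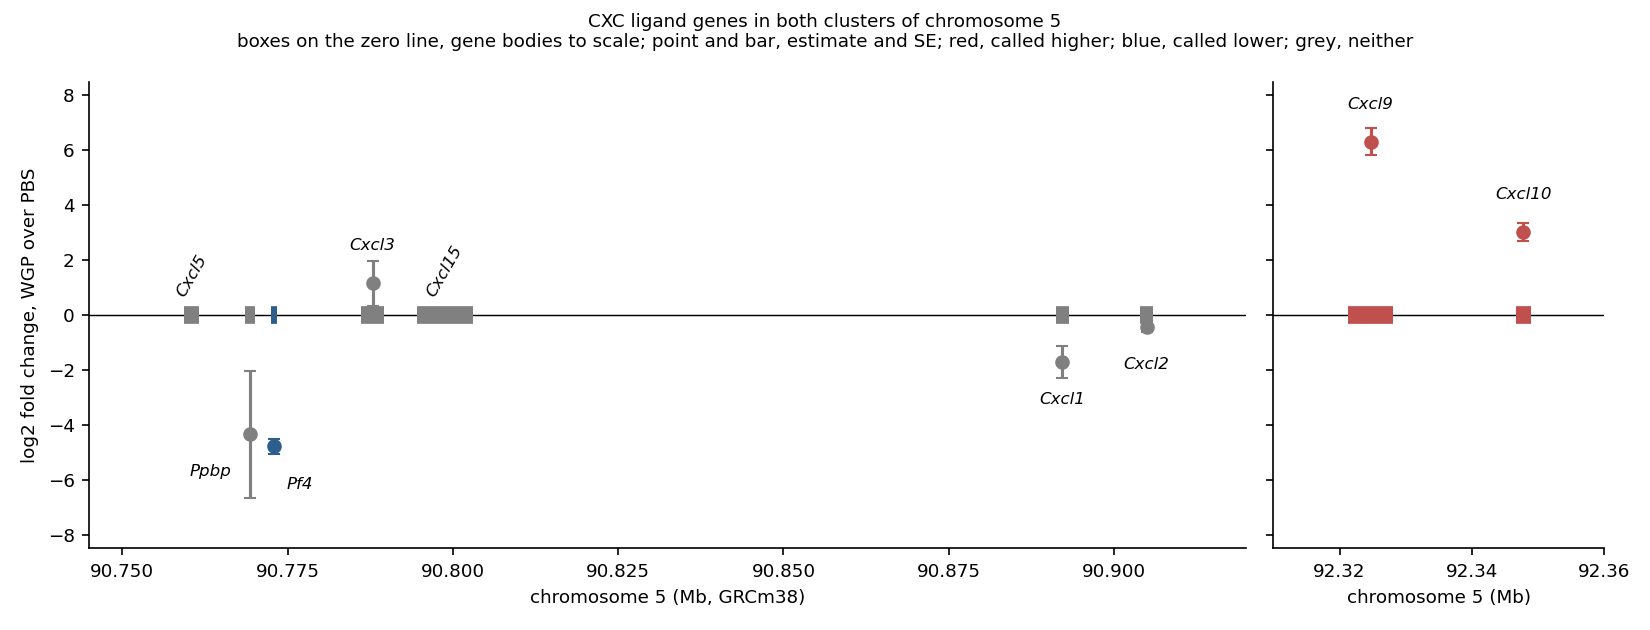
Both clusters of CXC ligand genes on chromosome 5, with position in Mb on a common scale and the fitted log2 fold change (WGP over PBS) with its standard error above or below each gene, except Cxcl5 and Cxcl15, for which a group was at 0. Cxcl9 and Cxcl10 stand at 6.31 and 3.02, Pf4 at -4.79, and Cxcl1, Cxcl2, Cxcl3 and Ppbp were not called.

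For these genes the 3 most similar genes were sought among 8568 tested genes with a mean of at least 10 CPM, by the root mean square difference over the 6 libraries of centred log2 levels. Nearest to Cxcl10 were Irgm1, an interferon-inducible GTPase gene, at 0.22, Dram1, a regulator of autophagy, at 0.228 and Sod2, the mitochondrial superoxide dismutase, at 0.232. Irgm1 went from 48.4, 46.3 and 39.0 CPM in PBS to 278, 624 and 352 CPM in WGP. Genes chosen in this way share the pattern of the member by construction. No gene came as close to Cxcl9, for which Tgtp1 and Gbp5, interferon-inducible GTPase genes, and Gpnmb differed by 0.483, 0.607 and 0.615. Tgtp1 was at 0, 0 and 0.0244 CPM in PBS, so its value depends on the 0.5 CPM added. Its mean of at least 10 CPM came from the WGP libraries, as did that of Gpnmb, which had at most 8.48 CPM in PBS. Nearest to Cxcr2 were Glipr2, Prdx6 and Bcl2a1d, at 0.066, 0.077 and 0.095, and none of them is on the list of neutrophil markers. Nearest to Cxcr4 were Smad3, Klhl28 and Appbp2, at 0.046, 0.061 and 0.067.

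Nearest to Cxcl1 were Mylk, the myosin light chain kinase, Mt2, a metallothionein, and Etv1, at 0.255, 0.338 and 0.447. Nearest to Cxcl2 were Zcchc24, Ttc33 and Fam117b, at 0.059, 0.073 and 0.078, and nearest to Cxcl3 were Celsr3, Egr3 and Cacnb3, at 0.373, 0.455 and 0.508. Nearest to Cxcr3 were Sgpp1, Cltb and Prmt2, at 0.106, 0.107 and 0.113. For Cxcr6 the nearest were C1s1, a complement protease gene, Slc7a2 and Fmnl2, at 0.595, 0.636 and 0.709. C1s1 stood at 89.9 CPM in WGP replicate 2 against 8.90 and 21.6 CPM in WGP replicates 1 and 3. In PBS it had at most 7.84 CPM, so its mean of at least 10 CPM came from the WGP libraries. Its peak in WGP replicate 2 follows from the choice by likeness.

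Markers of other cell types were low or differed as follows. Acinar, islet, endothelial, fibroblast and mesothelial cells carry no CD45 and fall outside the gate, and the source of their RNA in the sort was not tested. Of 5 acinar markers, led by Pnlip, all 5 were called lower, with sums of 1448, 3653 and 881 CPM in PBS replicates 1 to 3 and 276, 428 and 243 CPM in WGP replicates 1 to 3. Of 7 conventional dendritic cell markers, 1 was called lower, Cd209a, the most abundant, with sums of 254, 236 and 238 CPM against 197, 106 and 187 CPM. Cd209a was called in 16 of 17 other fits, with adjusted p values up to 0.1325. Eosinophil markers, led by Il5ra, had none called of 5, with sums of 78.2, 23.9 and 10.6 CPM against 30.2, 12.4 and 10.1 CPM. Mast cell and basophil markers, led by Mcpt8, were at 12.5, 0.873 and 0 CPM in PBS replicates 1 to 3 and at 0 in WGP, and Cpa3 was at 0 in every library. Of 4 endothelial markers 1 was called higher, Kdr, the most abundant, with sums of 11.8, 13.5 and 7.55 CPM against 23.3, 41.6 and 22.0 CPM. Kdr carried this difference, since the other 3 genes, summed after seeing the data, had 7.93, 5.54 and 5.82 CPM in PBS and 2.25, 5.45 and 1.66 CPM in WGP. Kdr was called in 16 of 17 other fits, with adjusted p values up to 0.0695. Islet markers, led by Ins2, did not exceed 2.81 CPM in any library, and Chga was at 0 in all. Of the 4 fibroblast and 4 mesothelial markers none was called in the main fit, though some were called in 1 or 2 of the other fits. The part of these cells in the values of the 10 genes was not tested.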

How the data were processed

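The authors used STAR 2.6 to align single-end reads of 75 bases to mm10, used HTSeq 0.10.0 to count reads in Ensembl genes and deposited raw counts, 1 column per library, without normalization. Strand setting, annotation release and treatment of duplicate reads are not given in the sources used here. The counts carry no molecular identifiers, so several reads can stem from 1 molecule.

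Gene symbols, biotypes and positions came from GENCODE vM21. Tested were the 14430 protein-coding genes whose RLE-normalized counts summed to 10 or more over the 6 libraries, with edgeR 4.0.16 (quasi-likelihood F test, TMM) in R 4.3.3, WGP against PBS, adjusted after Benjamini and Hochberg over all genes. The standard error is the absolute log2 fold change divided by the square root of F. Calls of members and lists are read against all genes tested, and no set test was run. A fold against a group at 0 used a floor of 3 counts over the group. Ratios and likeness used log2 of CPM plus 0.5, and ratios were tested by exact permutation of libraries. Levels between genes are CPM per kb of union exon length. Likeness is the root mean square difference of centred log2 levels.

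Alternatives were library totals only, upper-quartile or RLE scaling, DESeq2 1.42.0, limma 3.58.1 with voom, other filters on low counts, all features of the table, the replicate number as a term, Y-linked counts, present or absent, as a term, each library left out, other call rules, 0.1 or 1 CPM added in ratios, and longest transcript length. Leaving out PBS replicate 1 with WGP replicate 2 and the higher floor were added after seeing the data. The 10 genes, the 6 lists of related genes and the 17 marker lists were chosen with earlier results of these data known. Named are all 10 genes, all other CXC ligands and receptors, of other lists the called genes, at most 5 a list, and the most abundant gene, of marker lists the most abundant gene, called genes and genes at 0 in all libraries, and 3 genes of most similar pattern for each member but Cxcl16. Of the interferon-γ list some called genes and the most abundant gene are not named. In lists of 5 or more called markers the called genes are given as counts. Overlapping genes were named from the annotation. Promoter sequences are from RefSeq (GRCm38.p6). Their starts are those of RefSeq, so some windows, such as that of Cxcl2, reach past the gene starts of GENCODE.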

Additional observations from a re-analysis of the deposited data

How the results depend on the processing

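Cxcl9 and Cxcl10 kept their direction and their call under all alternatives, and none of the 10 genes reversed its direction. Among listed genes named beside them, the log2 fold change crossed 0 for Ackr3 (-1.13 to 1.39), Col1a2 (-1.27 to 3.63), Fos (-0.37 to 0.03), Gnai2 (-0.01 to 0.13), Ifng (-1.93 to 1.60) and Upk3b (-0.52 to 3.05), which no fit called. DESeq2 called 5 of the 10 genes where edgeR called 3, adding Cxcr6 (fitted log2 fold change 9.0) and Cxcl1 (-1.72). With the Y-linked term Cxcr2 (0.97) was not called, and at a threshold of 2 on the absolute log2 fold change neither was it (1.30). The Y-linked term put Cxcr3 at -0.28, Cxcl1 at -0.67, Cxcl2 at -0.03 and Cxcl3 at 0.49. At the adjusted p alone Cxcl16 (0.59) passed. Fcgr1, given as called among the myeloid markers, was called in 16 of 17 other fits, with log2 fold changes down to 0.92. Over all genes 2071 were called at the adjusted p alone and 568 at the fold threshold of 2. Without a library or the pair of PBS replicate 1 and WGP replicate 2, 1146 to 1595 genes and 3 to 6 of the 10 were called. Log2 fold changes then ranged from 5.79 to 6.79 for Cxcl9, from 2.56 to 3.22 for Cxcl10, from -1.44 to -0.75 for Cxcr3, from 0.35 to 0.69 for Cxcl16, from 8.33 to 10.17 for Cxcr6 (fitted, no bound), from -2.64 to -1.26 for Cxcl1, from -0.59 to -0.22 for Cxcl2, from 0.54 to 2.10 for Cxcl3, from 1.08 to 1.50 for Cxcr2 and from 0.36 to 0.67 for Cxcr4. The causes were not tested. The ratio differences ranged from 3.17 to 3.56 (Cxcl9 to Cxcl10), from -2.12 to -0.77 (Cxcl1 to Cxcl2) and from 0.84 to 1.88 (Cxcl3 to Cxcl2). All 10 genes kept their rank by level with longest transcript length. With library totals only, the median of all genes moved from -0.05 to -0.16.

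Replicate numbers did not pair the libraries, with correlations of 0.04, -0.09 and 0.06 between libraries of the same number. With the replicate number as a block, 1341 genes and 3 of the 10 were called. Low counts came in lumps, so floors and folds of genes with few counts, such as Cxcr6 and Cxcr1, are uncertain.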
